A study of Apeltes quadracus with 85 samples.

Results

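In developing fin-fold tissue of the stickleback Apeltes quadracus, 23 of 28920 fixed 10-kb bins of the genome had read levels that climbed from the first dorsal spine through the next spines to the last. They were chosen from the measured levels. A bin belonged when its mean level was at least 1 count per 1000000 counts (CPM) in the last dorsal spine (DSL), stepped up strictly from dorsal spine 1 (DS1) to 2 (DS2) to 3 (DS3) to DSL, and was at least 2 times higher in DSL than in DS1. The DSL mean also had to be no lower than that of the blank pterygiophore (Pter), the dorsal fin (DF) or the anal fin (AF). The level is the number of reads counted at the listed variant sites of a bin per 1000000 (M) counted at all listed sites of the library. It is not corrected for the length of a transcript, so levels are compared between tissues and not between bins.

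Dorsal spines of sticklebacks are serially repeated bones that form in a median fin fold, each standing on a pterygiophore, an internal support bone, and a blank pterygiophore carries no spine. Hox genes encode homeodomain transcription factors, lie in clusters, and are known for marking position along the head-to-tail axis of animals. HOXDB is a Hox cluster on stickleback chromosome 6 that contains HOXD4B, HOXD9B and HOXD11B. HOXD4B was not placed in a bin here, and the bin called HOXDB below is the one with the variants of HOXD9B and HOXD11B.

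RNA was sequenced from 85 dissected tissues of 11 fry that were bred by in vitro fertilization from Louisbourg parents and taken at the finfold stage (stage 31), at 11 to 13 mm in standard length. The HOXDB genotype was H/L in 4 fish, H/LHR in 3 and L/LHR in 4, where H and L stand for haplotypes of high and low spine number and LHR for a recombinant between them. The fish with an H haplotype (n = 7) are called H carriers below and are set against those of the L/LHR genotype (n = 4). No fish was homozygous for a haplotype. Dorsal spine 4 (DS4) came from 8 fish, 7 H carriers and 1 L/LHR fish, and the rule did not use it. Each tissue is 1 library per fish, and in dissected bulk tissue more cells of a type cannot be told apart from more RNA per cell.

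Library totals ranged from 2.15 to 46.6 M counts (median 35.2 M), so 1 CPM in DSL stood for 4.78 to 41.0 counts. Of the 6 libraries under 10 M counts, 5 were from H/L fish, among them the DS1 libraries of fish 1 and 3 and the DSL libraries of fish 3 and 4. In 2 libraries, DSL of L/LHR fish 2 and Pter of H/L fish 3, some members carried alleles that the same fish lacked elsewhere, and without them 22 bins met the rule, 21 of them members. The bins carry no gene names here, since the files hold positions only, and coordinates are those of the study's Apeltes assembly, whose chromosomes follow the order of Gasterosteus. The exception is the chr06 bin at 16020001-16030000, which holds the variants of HOXD11B (16020516) and HOXD9B (16027923 and 16028519) that the study names. The fry were genotyped with a pair of markers that start in this bin, on chromosome 6, between the read-bearing stretches described further on. Their primers are shown because they locate the haplotype test within the bin that led the set:
AQ-HOXDB_6F: cagctgctcttaatgtcgcc
AQ-HOXDB_6R: caaagagggagagcagacgg
AQ-HOXDB_7F: gctgtgacttgtttcaaatgcc
AQ-HOXDB_7R: taagtggctcgcgtttaccg

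Of the 28920 bins with a listed site, 16911 reached a DSL mean of 1 CPM, and the 23 members were 0.136% of these. The 4 dorsal-spine means were in strict order in 709 bins, the DSL mean was at least 2 times the DS1 mean in 73, and both held in 44. The mirrored pattern, falling at least 2-fold from DS1 to DSL in strict order, was met by 18 bins, against the 44 that rose, when neither was bounded by the fins and Pter. Members lay on 15 numbered chromosomes and the unplaced sequence (Un). Chromosomes 11 and 12 held 3 each, chromosomes 3 and 13 and the unplaced sequence 2 each, and the other 11 chromosomes 1 each. Only 2 pairs of members were neighbours, at chr11:12170001-12180000 with chr11:12180001-12190000 and at chr03:5620001-5630000 with chr03:5630001-5640000.

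Just inside the level threshold were chr02:550001-560000, chr17:14770001-14780000 and chr21:160001-170000, with DSL means of 1.06, 1.24 and 1.88 CPM. Just outside were chr04:13070001-13080000, chr06:9390001-9400000 and chrUn:31420001-31430000, with 0.955, 0.939 and 0.882 CPM. On the ratio of DSL to DS1, chr21:160001-170000, chrUn:21690001-21700000 and chr12:14830001-14840000 were just inside at 2.05, 2.08 and 2.12. Outside were chr10:14080001-14090000, chr13:15460001-15470000 and chr17:450001-460000, at 1.96, 1.93 and 1.88.

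**Figure D1:**
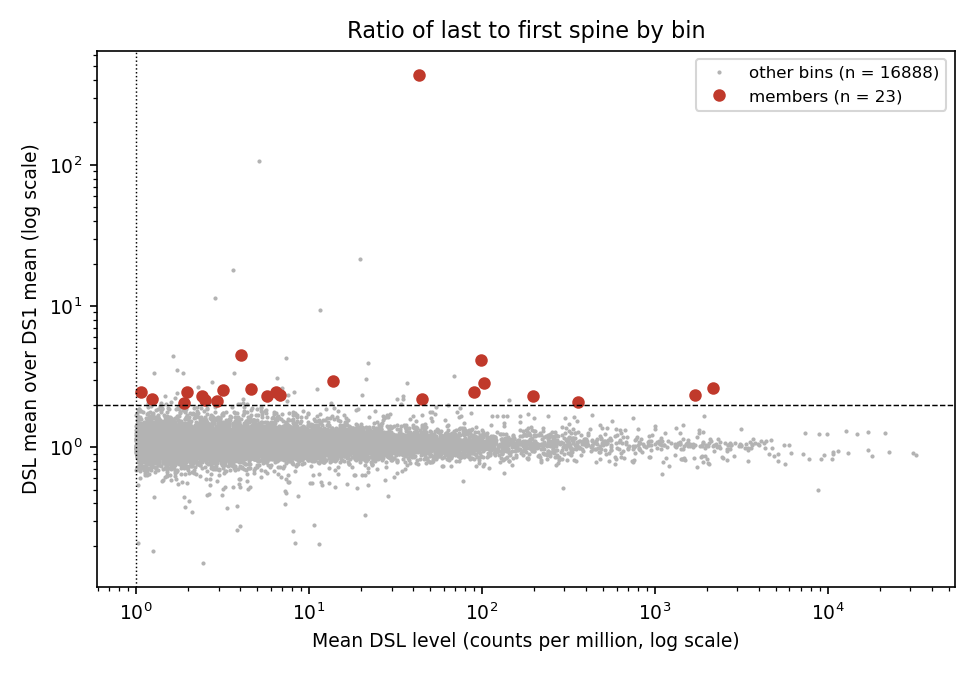
Each point is a 10-kb bin with a DSL mean of at least 1 CPM; the x axis is the DSL mean and the y axis the ratio of the DSL mean to the DS1 mean, both on log scales, with members in red and the dashed line at a ratio of 2. The chr06 HOXDB bin stands alone at a ratio of 432, and the other 22 members lie between 2.05 and 4.53.

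The member bins ranged in DSL mean from 1.06 to 2182 CPM, with a median of 6.45 CPM, and 10 of them were above 10 CPM. The ratio of DSL to DS1 was 432 in the HOXDB bin and 2.05 to 4.53 in the other 22, with a median of 2.45 over all 23. The HOXDB ratio was the largest of all 16911 bins. The next 5 bins by this ratio were strictly ordered as well, but none was a member because the fins were above DSL in each. chr12:10240001-10250000 had a ratio of 107, with 5.11 CPM in DSL against 15.0 in DF and 19.0 in AF. chr17:3430001-3440000 had a ratio of 21.6, with 19.8 CPM in DSL against 123 in DF and 140 in AF. chr16:9100001-9110000, chr20:9580001-9590000 and chr12:10250001-10260000 had ratios of 18.1, 11.4 and 9.40. The last of these missed the rule narrowly, with 11.50 CPM in DSL against 11.58 in DF and 11.63 in AF. These bins were singled out after their values were seen. By mean CPM, which is scaled by library totals alone, the HOXDB bin was thus the only one of the 6 steepest whose level peaked in the last spine. A comparison of DSL with the fins can depend on the scaling, and levels under other scalings are not given for these bins.

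In the HOXDB bin, DS1 was close to empty. Its level in DS1 was 0 in the lowest fish, 0.0546 CPM in the median fish and 0.373 CPM in the highest, from 40 counts over 11 libraries, 3 of which had none. In DS2 it was 0.203, 1.30 and 3.41 CPM in the lowest, median and highest fish. In DS3 it was 5.39, 12.6 and 24.5 CPM. In DSL it was 27.7, 47.3 and 60.9 CPM, from 12175 counts. The fish of DS1, DS2, DS3 and DSL formed bands that did not overlap between DS2 and DS3 or between DS3 and DSL, and the DSL and DS1 fish did not overlap either. Within fish, DS2 was above DS1 in 10 of 11, DS3 above DS2 in 11 of 11 and DSL above DS3 in 11 of 11. The exception was H/L fish 2, with 0.203 CPM in DS2 and 0.373 in DS1. The means stepped up 14.4-fold between DS1 and DS2, 9.86-fold between DS2 and DS3 and 3.04-fold between DS3 and DSL.

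Behind DS3, HOXDB was at a similar level in DS4 and Pter before it peaked in DSL. DS4 had 22.2 ± 2.19 CPM (SD, n = 8) and Pter 21.03 ± 5.82 CPM (SD, n = 11), against 14.1 ± 6.06 CPM in DS3 and 43.0 ± 11.1 CPM in DSL (SD, n = 11 each). DS4 was above DS3 in all 8 fish that had both. DF and AF had 13.1 ± 3.53 and 13.3 ± 2.90 CPM (SD, n = 11 each), which is 30.4% and 31.0% of DSL. DSL was the highest of the tissues in all 11 fish.

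**Figure D2:**
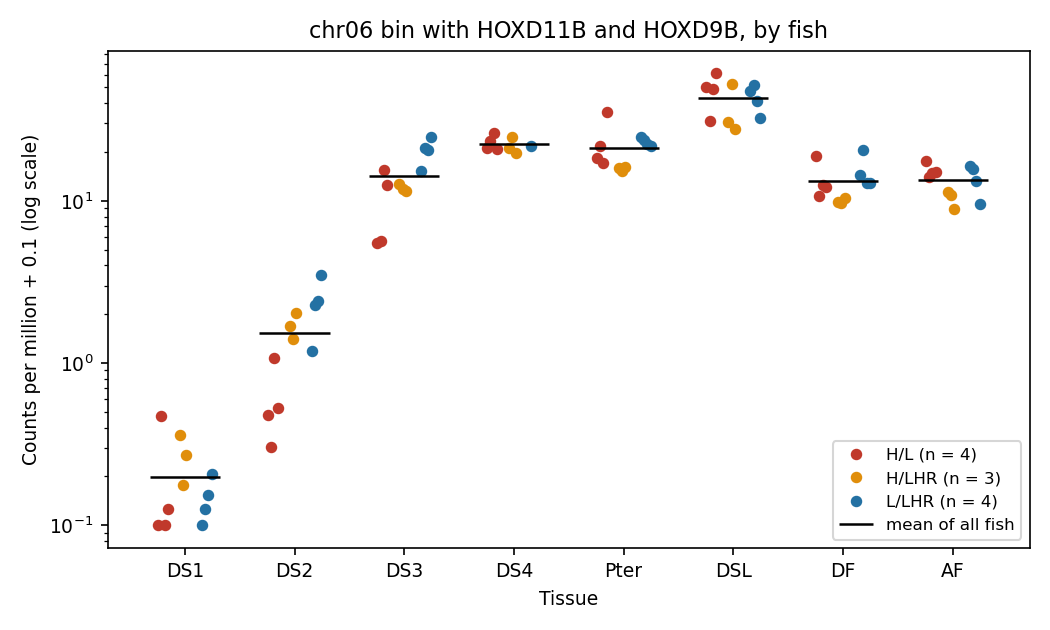
Level of the chr06 bin with HOXD11B and HOXD9B in each tissue; each point is 1 fish coloured by genotype, the y axis is CPM plus 0.1 on a log scale, and black lines are means of all fish. DS1 lies at or below 0.373 CPM and DSL between 27.7 and 60.9 CPM.

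The rise was carried by both ends of the bin. Of its 59 listed sites, 49 had at least 100 reads, and of these 43 were strictly ordered over DS1, DS2, DS3 and DSL and all 49 were highest in DSL. The 11 sites at 16020052-16021618, around the HOXD11B variant, summed to 0.0323 CPM in DS1, 0.175 in DS2, 2.84 in DS3 and 9.19 in DSL. The 40 sites at 16025269-16029269, around the HOXD9B variants, summed to 0.0448 CPM in DS1, 1.26 in DS2, 11.3 in DS3 and 33.7 in DSL. As a share of their own DSL level, DS2 had 1.90% at the HOXD11B end and 3.73% at the HOXD9B end, from 63 and 442 counts over 11 libraries. The 8 sites between them, at 16022901-16023090, had 25 counts over all DSL libraries.

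**Figure D3:**
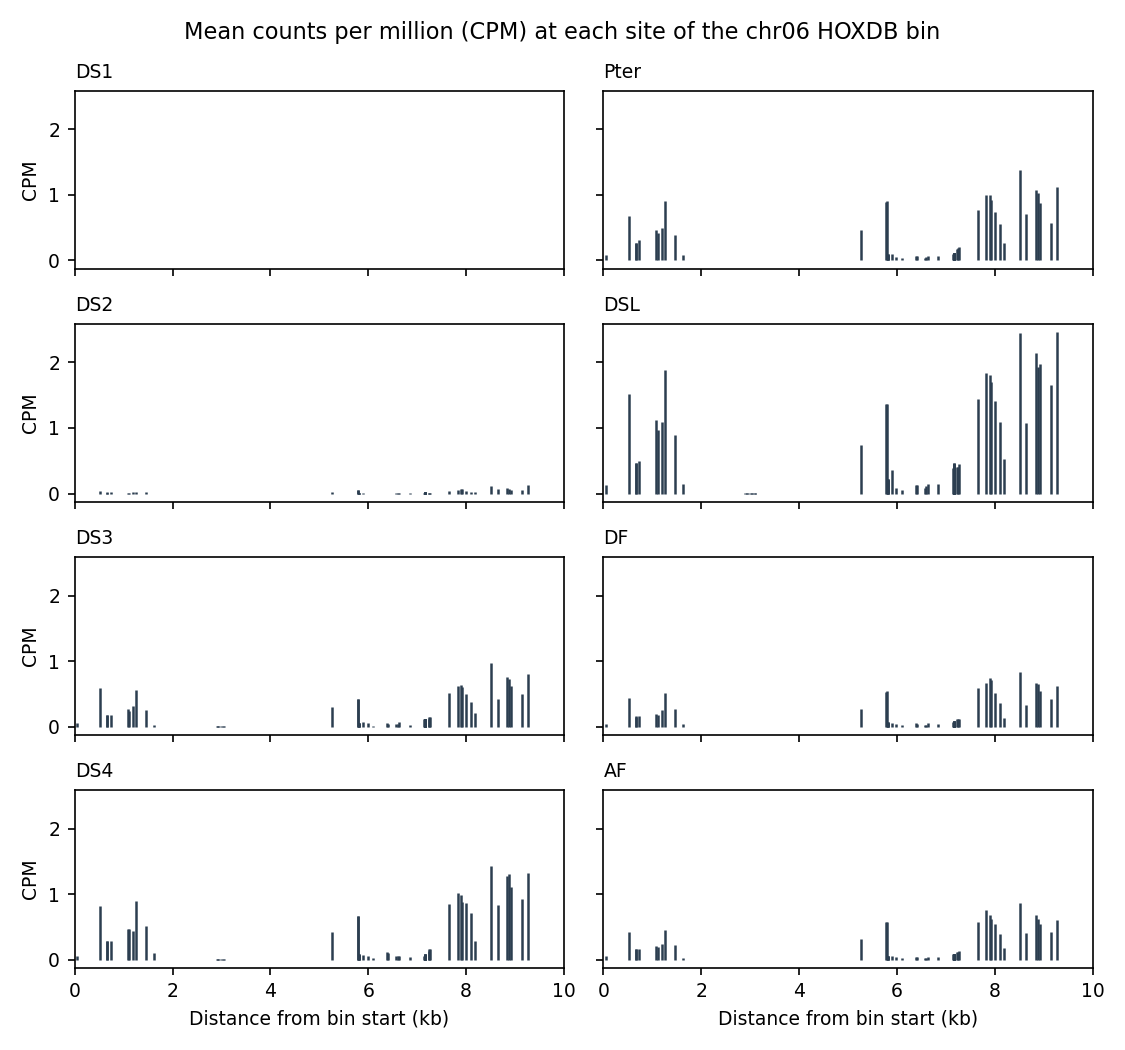
Mean CPM over fish at each listed site of the chr06 HOXDB bin, by distance from the start of the bin in kb, with 1 panel per tissue and a shared y axis. Sites within 2 kb of the start and beyond 5 kb carried the reads, and every well-covered site was highest in DSL.

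In the bins beside it the step between DS1 and DSL was small. chr06:16010001-16020000 had 10.9 ± 3.44 CPM in DSL and 7.59 ± 2.32 CPM in DS1 (SD, n = 11 each). chr06:16000001-16010000 had 10.2 ± 2.91 CPM in DSL and 9.85 ± 2.49 CPM in DS1. chr06:16040001-16050000 had 14.2 ± 3.30 CPM in DSL and 11.3 ± 2.48 CPM in DS1. In each of these the DSL and DS1 fish overlapped. chr06:16030001-16040000 rose in order of means but was nearly silent, at 0.0896 CPM in DSL and 0.0140 CPM in DS1, from 23 and 6 counts.

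Across the 8 tissue means, as log2(CPM + 0.1), the members most like the HOXDB bin were chr16:9090001-9100000 (Pearson r = 0.93), chr15:5970001-5980000 (0.91), chr04:13600001-13610000 (0.85), chr02:550001-560000 (0.78) and chr12:10640001-10650000 (0.77). These are descriptions over 8 points that share libraries and denominators, and the rule had already ordered 4 of the points. In the same order of bins, DSL was the highest of the tissues in 9, 4, 4, 4 and 6 of 11 fish, against 11 in HOXDB. In chr04:13600001-13610000 the DSL mean of 6.81 CPM included H/L fish 4 at 24.3 CPM, and by medians AF (7.11 CPM) was above DSL (5.99 CPM). In chr02:550001-560000 AF was at 94.5% of DSL.

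The chr16:9090001-9100000 bin was the only other member whose DSL and DS1 fish did not overlap. It had 2.00, 3.74 and 6.19 CPM in the lowest, median and highest fish in DSL, against 0.582, 0.859 and 1.40 CPM in DS1. Its DSL level was at least 2 times its DS1 level in all 11 fish, and 7 fish were strictly ordered over the 4 spines. Its counts were small, 1199 over the DSL libraries and 289 over the DS1 libraries. They came from 13 listed sites, of which 1 gave 35.1% of the reads over all libraries. DF and AF stood at 62.6% and 61.0% of DSL. The bin beside it, chr16:9100001-9110000, was strictly ordered in 10 fish, had 3.62 CPM in DSL and 0.2003 in DS1, and was kept out of the set by DF at 4.82 and AF at 4.46 CPM. It was the only one of the 5 steepest bins outside the set that adjoined a member.

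The chr09:470001-480000 bin had a shape of its own. In DSL it had 22.1, 98.5 and 188 CPM in the lowest, median and highest fish, against 4.999, 21.9 and 64.8 CPM in DS1. DSL was above DS1 in 11 of 11 fish, but only 1 fish was strictly ordered over the 4 spines. Its level dropped to 20.2 CPM in DS4 and 7.95 CPM in Pter, just in front of the peak in DSL, and was 49.4 CPM in DF and 68.2 CPM in AF. Pter was thus at 8.05% of DSL, the lowest share of any member. The bin had only 7 listed sites, of which 1 gave 26.6% of its reads.

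In chr12:10640001-10650000 DSL and the anal fin were close. DSL had 69.2, 103 and 132 CPM in the lowest, median and highest fish, against 59.7, 104 and 129 CPM in AF and 6.05, 38.8 and 69.6 CPM in DS1. DSL was above DS1 in 11 of 11 fish. Fin levels near that of DSL recurred among the low bins, and in 5 members AF was at 80% or more of DSL.

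Of the 23 members, 10 had AF under 50% of DSL, and 6 of these were among 7 bins that varied together over libraries. Across all 85 libraries, as log2(CPM + 0.1), 6 members correlated with chr11:12180001-12190000 at r of 0.82 to 0.98, namely chr11:12170001-12180000, chr12:7430001-7440000, chr05:12530001-12540000, chr03:5630001-5640000, chrUn:21690001-21700000 and chr07:15950001-15960000. The libraries are shared between these bins, and r is given as a description over 85 points with no test, and the limit of 0.8 was set after the values were seen. The next member was at 0.80 (chr11:14400001-14410000) and the lowest at 0.087. In these 7 bins AF was 42.4% to 55.3% and Pter 45.9% to 49.4% of DSL, and DS4 was below DS3 in all 7. DSL over DS1 was 2.08 to 2.64.

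The one with the highest DSL mean, chr11:12180001-12190000, held 105 listed sites. It had 999.8, 1768 and 5193 CPM in the lowest, median and highest fish in DSL, against 179, 910 and 1639 CPM in DS1. The DSL and DS1 fish overlapped, although the means differed 2.64-fold. DSL was above DS1 in 10 of 11 fish, with the exception of L/LHR fish 3 (1162 CPM in DSL, 1263 in DS1). Within fish the ratio of DSL to DS1 was 20.5 in H/L fish 1, 7.90 in H/L fish 4 and 0.921 to 4.34 in the other 9. In 6 of the 7 bins the DSL levels of H/L fish 1 and H/L fish 4 were above those of all other fish. The exception was chr07:15950001-15960000, where fish 1 had 4.64 CPM and another fish reached 6.66. The DS1 library of H/L fish 1 had 2.15 M counts and the DSL library of H/L fish 4 had 7.43 M, against a median of 35.2 M. With the 6 libraries under 10 M counts left out, 2 of the 7 bins still met the rule, chr11:12180001-12190000 and chr12:7430001-7440000.

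**Figure D4:**
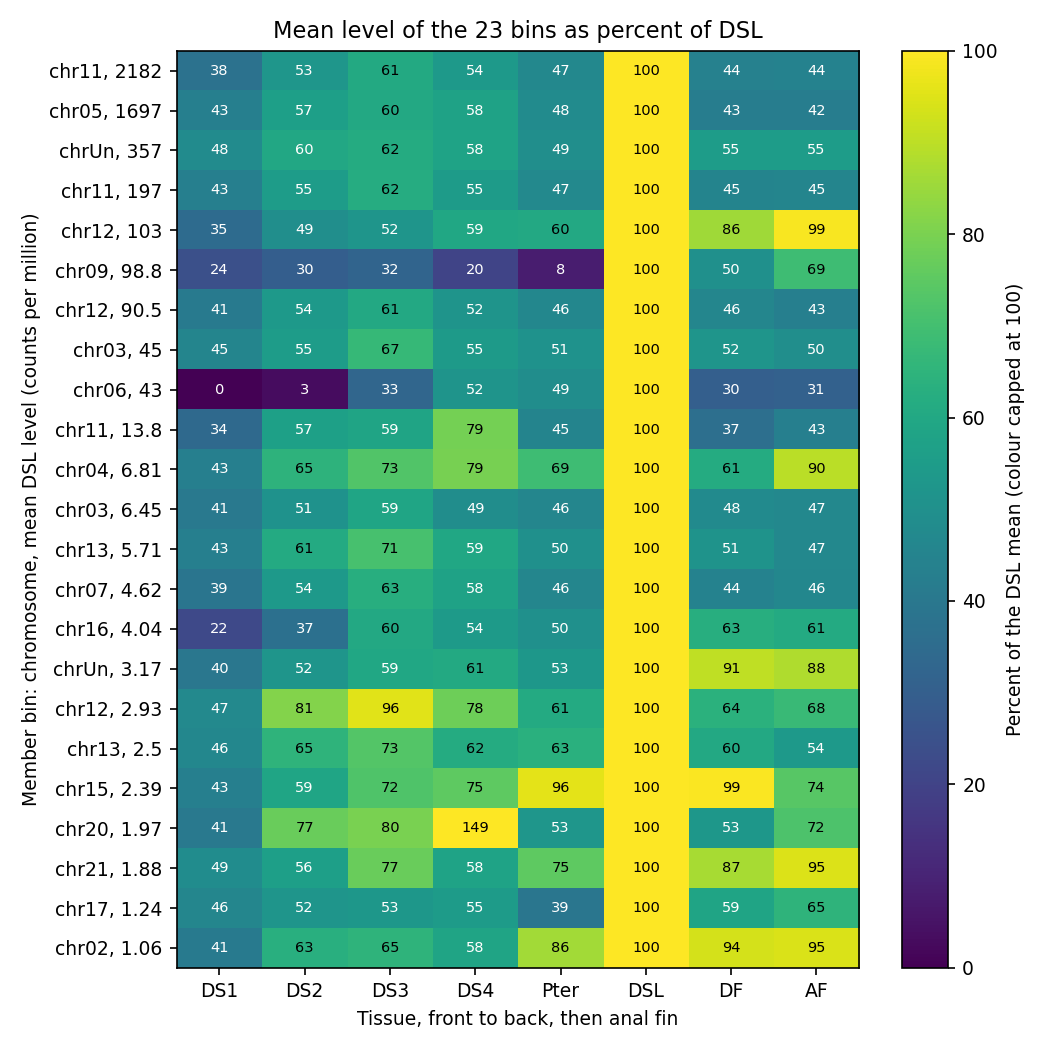
Mean level of each member in each tissue as percent of its DSL mean; rows are members from high to low DSL level, named by chromosome and DSL mean in CPM, columns are tissues, and colour is capped at 100. The chr06 row starts near 0, the chr09 row dips to 8 in Pter, and the chr20 row is highest in DS4.

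Over the 23 members as a whole the fish did not line up as the means did. Strict order over DS1, DS2, DS3 and DSL within a fish held in 10 of 11 fish for HOXDB, in at most 7 for any other member, and in 3 for the median member. Outside the set it also held in 10 fish for chr12:10250001-10260000 and chr16:9100001-9110000. The median of the 16911 bins was 0, and since the rule ordered the means over these same fish, the higher count in members is built into their choice. DSL was above DS1 in all 11 fish for 7 members and in at least 7 fish for every member. The DSL and DS1 fish were separate in 2 members, HOXDB and chr16:9090001-9100000. Leaving out H/L fish 1 and 4 together, an alternative chosen after the data were seen, the number of bins that met the rule was 8, of which 5 were members (HOXDB, chr09:470001-480000, chr12:14830001-14840000, chr16:9090001-9100000 and chrUn:11910001-11920000). The HOXDB ratio was then 338 and that of chr11:12180001-12190000 was 1.84. With the 6 libraries under 10 M counts left out, 12 bins met the rule, 10 of them members. HOXDB and chr16:9090001-9100000 were the 2 members kept in both of these sets and when medians over fish replaced means.

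DS4, which the rule did not use, continued the rise in a minority. Its mean lay between those of DS3 and DSL in 7 of 23 members, as it did in 9.99% of the 16911 bins, below DS3 in 15 and above DSL in 1. The 9.99% is over bins of which most had no ordered spines, whereas the rule set DSL above DS3 in every member. The 7 included HOXDB, chr12:10640001-10650000 (61.1 ± 12.5 CPM in DS4, 53.5 ± 14.3 in DS3) and chr11:14400001-14410000 (10.9 ± 5.26 CPM in DS4, 8.07 ± 3.83 in DS3; SD, n = 8 and 11). The DS4 mean is over fewer fish than the others and lacks 3 of the L/LHR fish. The 1 member above DSL was chr20:13730001-13740000, with 2.94 CPM in DS4 and 1.97 in DSL, and its DS4 mean rested on H/L fish 3 at 12.6 CPM, in a library of 2.69 M counts, while the other 7 fish had 0.482 to 2.53 CPM.

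Pairs of tissues that the rule did not set against each other were tested with edgeR's quasi-likelihood test on all 18099 bins that reached 1 CPM in a tissue, with Benjamini-Hochberg adjustment. The main fits had no term for the fish, so tissues of the same fish were treated as independent. Fish as a block was an alternative. Between Pter and DS4, neighbours along the back, none of the 23 members was called, with 3 at an unadjusted p under 0.05 (chr09:470001-480000, chr11:14400001-14410000 and chr20:13730001-13740000), all with lower values in Pter. The background was 0.122% of bins called higher and 1.69% called lower. At an unadjusted p under 0.05 in edgeR, 5.75% of all bins were higher and 7.41% lower in Pter. The median log2 change of the members was -0.31, against 0.03 over all bins. In this fit 20 of 23 members had lower values in Pter, against 44.0% of all bins, and in mean CPM 18 did. The rule kept Pter at or below DSL and put no bound on DS4, so the lower values in Pter are partly set by the choice of members. DESeq2 and the fit with fish as a block each called 1 member, chr20:13730001-13740000, lower in Pter (adjusted p = 0.029 in both). Both fits used the DS4 library of H/L fish 3, at 12.6 CPM in this bin against 0.482 to 2.53 CPM in the other fish. Without H/L fish 4, edgeR called chr11:14400001-14410000 (log2 change -1.29, adjusted p = 0.011) and not chr20:13730001-13740000. The HOXDB bin had 21.03 CPM in Pter and 22.2 in DS4, with a log2 change of -0.18 and an adjusted p over the threshold in every fit.

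Between DF and Pter, which lie behind and in front of DSL, 4 members were called. The background was 19.8% of bins called higher in DF and 18.2% called lower, and among the members 1 was higher and 3 lower. In this fit 20 of 23 members had lower values in DF, against 43.4% of all bins. The rule kept both DF and Pter at or below DSL in CPM, so these directions may be partly set by the choice of members. The chr09:470001-480000 bin had 49.4 ± 34.8 CPM in DF and 7.95 ± 6.43 CPM in Pter (SD, n = 11 each), was higher in DF in 11 of 11 fish and had a log2 change of 2.10 ± 0.47 (SE; edgeR, adjusted p = 0.000215). HOXDB had 13.1 ± 3.53 CPM in DF and 21.03 ± 5.82 CPM in Pter and was higher in Pter in 10 of 11 fish, with a log2 change of -1.19 ± 0.25 (SE; edgeR, adjusted p = 6.7e-05). The remaining calls were chr11:14400001-14410000 (log2 change -0.76, edgeR adjusted p = 0.037) and chr05:12530001-12540000 (-0.62, edgeR adjusted p = 0.049). Both were lost without H/L fish 4, at adjusted p of 0.21 and 0.26 in edgeR. Leaving out H/L fish 2, H/LHR fish 2, H/LHR fish 3 or L/LHR fish 3 alone also lost both. Over all alternatives that gave a value they were called in 11 of 20 and in 7 of 21, each at its own threshold. With fish as a block, edgeR called 7 members, these 4 and chr04:13600001-13610000, chr15:5970001-5980000 and chr21:160001-170000, the added 3 all lower in DF. The share of all bins called in that fit is not given, so the 7 cannot be set against a background.

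This comparison depended on the scaling. Without TMM factors, which scale each library to the bulk of its bins, the median log2 change of all bins was 0.58 in place of 0.07, and 11926 bins were called higher in DF and 781 lower, in place of 3588 and 3300. The members' median was -0.45 with TMM factors and 0.05 without. The members called without them were 3 higher in DF (chr09:470001-480000, chr12:10640001-10650000 with a log2 change of 0.51 and chrUn:11910001-11920000 with 0.77) and 1 lower (HOXDB), in place of 1 higher and 3 lower, so the balance of directions among members depended on the scaling. HOXDB kept its direction and its call in all 20 alternatives that gave a value, with log2 changes of -1.27 to -0.69, and chr09:470001-480000 in all 21, with 1.73 to 2.64.

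Between DF and AF no member was called. None passed the threshold in edgeR or DESeq2, against 0.265% of bins called higher and 0.00553% called lower in DF by edgeR. At an unadjusted p under 0.05 in edgeR there were 0 members, against 2.47% of all bins higher and 0.729% lower in DF. The members' log2 changes ran between -0.58 and 0.38 with a median of -0.06, against 0.00 for all bins. In HOXDB DF and AF had 13.1 and 13.3 CPM, and DF was above AF in 4 of 11 fish. A p over the threshold does not show that the fins are equal in these bins.

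In every genotype the DSL mean was above the DS1 mean in all 23 members, but it was at least 2 times the DS1 mean in 23 members in H/L fish, 16 in H/LHR and 8 in L/LHR. Applied to each genotype alone, the rule was met by 101 bins in H/L fish (16 of them members), 18 in H/LHR (8 members) and 12 in L/LHR (3 members). HOXDB and chr16:9090001-9100000 met it in all 3 genotypes, 6 members in 2, 9 in 1 and 6 in none. These counts use the same levels as the choice of members and are not tests. The H/L group also held 5 of the 6 libraries under 10 M counts, and the part of depth in its counts was not tested. Of the 22 members other than HOXDB, 8 had a DS1 level of 0 and no ratio in H/L fish 1, and the median within-fish ratio of DSL to DS1 over its other 14 was 8.59. The median was 6.17 in H/L fish 4, over all 22, and 1.13 to 3.60 in the other 9 fish, over 21 members in H/L fish 3 and 22 in the rest.

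**Figure D5:**
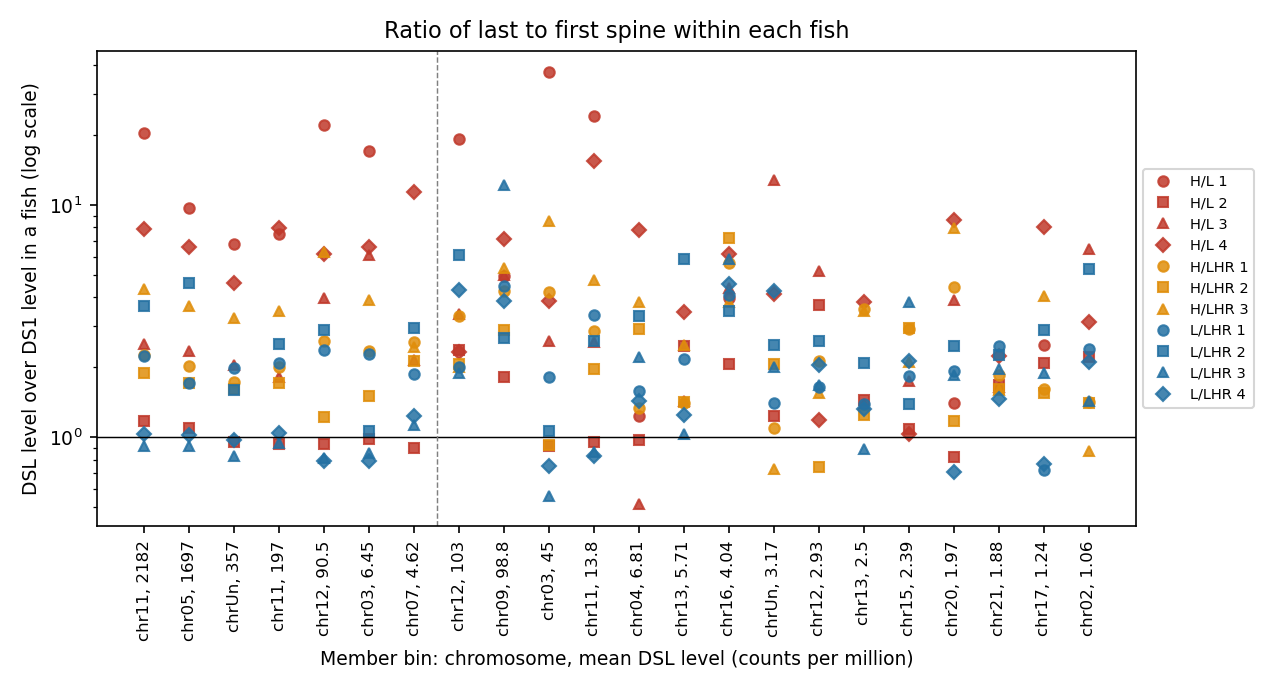
Ratio of DSL to DS1 within each fish, on a log scale, for the 22 members other than HOXDB; colours are genotypes and shapes replicate numbers, the 7 co-varying bins are left of the dashed line, and points with a DS1 level of 0 are left out. H/L fish 1 and 4 lead in most of the co-varying bins, and several fish lie at or below 1.

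The rise between DS1 and DSL was tested for a difference between H carriers and L/LHR fish with an interaction contrast. The members were chosen by this rise over all fish, most of them H carriers, so the contrast is not independent of their choice. The members' median log2 difference was 0.65, against -0.02 over all bins. No member and none of the 18099 bins was called by edgeR (0% higher and 0% lower), with 2 members at an unadjusted p under 0.05, and DESeq2 called 0 members and 1 bin. Those 2 were chr03:5630001-5640000, with a log2 difference of 1.31, and HOXDB, with -1.96 ± 0.84 (SE; unadjusted p = 0.017, edgeR adjusted p = 1.00). The HOXDB estimate rests on DS1 libraries with 40 counts in all. At an unadjusted p under 0.05 there were, over all bins, 238 with a higher and 210 with a lower value in edgeR.

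In DSL itself no member was called between H carriers and L/LHR fish. The DSL level over all fish, most of them H carriers, took part in the choice of members, so this contrast is not independent of it. The members' median log2 change was 0.33, against -0.004 over all bins. edgeR called 0 members and DESeq2 0, and 0 had an unadjusted p under 0.05. Of all bins 0% were called higher and 0.00553% lower. At an unadjusted p under 0.05 in edgeR, 3.41% of all bins were higher and 4.44% lower in H carriers. HOXDB had 43.0 ± 13.1 CPM in H carriers (n = 7) and 43.0 ± 8.29 CPM in L/LHR fish (n = 4; SD), with a log2 change of -0.15.

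In DS3 HOXDB stood at 5.39, 5.54, 11.4, 11.7, 12.5, 12.6 and 15.3 CPM in H carriers, against 15.1, 20.4, 21.2 and 24.5 CPM in L/LHR fish. The groups overlapped by 1 fish of each. The means were 10.6 ± 3.75 and 20.3 ± 3.86 CPM (SD, n = 7 and 4), and the log2 change was -1.19 ± 0.32 (SE). With edgeR this did not pass the threshold over all bins (unadjusted p = 0.00035, adjusted p = 0.11), and with DESeq2 it did (log2 change -1.22, adjusted p = 0.039). The adjusted p over all alternatives ran from 0.039 to 0.91. edgeR called no member, with 3 at an unadjusted p under 0.05, all with lower values in H carriers (HOXDB, chr12:14830001-14840000 and chr17:14770001-14780000), and of all bins it called 0% higher and 0.221% lower. At an unadjusted p under 0.05 in edgeR, 1.80% of all bins were higher and 3.80% lower in H carriers. In DS2 the HOXDB means were 0.972 ± 0.665 CPM in H carriers and 2.24 ± 0.953 CPM in L/LHR fish (SD, n = 7 and 4), which were not tested.

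Mapping and alleles bore on some members more than on others. The share of raw depth that the counter set aside for low mapping quality was 40.4% in chr11:12170001-12180000, 26.8% in chr11:12180001-12190000 and 11.7% in chrUn:11910001-11920000, against 4.52% over all sites and a median of 0.182% in the members. Reads of near-identical copies may be split there, and the levels of these bins are uncertain to that extent. Allele shares at heterozygous sites could be read in DSL and AF of at least 6 fish in 3 members only. The alternate share in DSL minus that in AF averaged 5.07 ± 7.21 percentage points in HOXDB (SD, n = 11), higher in DSL in 9 fish. It averaged -2.38 ± 8.06 in chr11:14400001-14410000 (n = 9) and -0.0549 ± 4.55 in chrUn:21690001-21700000 (n = 11), higher in DSL in 5 and 6 fish. The SD is the spread between fish, alternate alleles were not assigned to haplotypes, and the differences were not tested.

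In 2 libraries the reads of the members with the highest DSL means carried alleles that the same fish lacked elsewhere. In the DSL library of L/LHR fish 2 the alternate allele made up 27.3% of the reads in chr11:12180001-12190000 and 30.0% in chr05:12530001-12540000, against 0.221% and 0.139% in the other libraries of that fish. In the Pter library of H/L fish 3 it was 17.1% and 20.7%, against 0.307% and 0.466%. These 2 libraries were singled out after their values were seen.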

How the data were processed

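Per the labels and the methods of the study, the authors used Trim Galore and cutadapt 2.4 for trimming, mapped reads with STAR to an Apeltes assembly scaffolded along Gasterosteus, and counted reads per allele at variant sites with GATK 4.1.4.1. The deposited values are raw counts per site, with no normalization, and only sites that were covered in a library are listed. Counts of both alleles were summed in 10-kb bins and divided by the library's total in M counts (M, 1000000), which gives CPM, so a read over several sites was counted at each. The bins and the rule were chosen with earlier results of these data known. Means over fish were used for the rule. Of the columns with per-sample values, 0 were left unmapped.

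Tests used edgeR 4.0.16 (quasi-likelihood, TMM) in R 4.3.3 on summed counts of bins with a mean of at least 1 CPM in a tissue, at an adjusted p (Benjamini-Hochberg) of 0.05. The fits were also run on simulated counts. These had independent libraries, the same spread in every bin and no effect of the fish, so they do not cover the pairing or spread of the real data. DESeq2 1.42.0 was an alternative, and others changed scaling, filters, bin width, sites, thresholds and fish. Python 3.11.15 was used for the rest. Replicates are separate fish. Tissues with the same genotype and replicate number came from the same fish per the labels. Their deviations from the tissue means correlated in every fish (r of 0.45 to 0.81 for DF and AF, 0.30 to 0.68 for DF and Pter, 0.25 to 0.65 for Pter and DS4 and 0.15 to 0.65 for DSL and DS1). The lowest values for DSL and DS1 were 0.147 in H/L fish 1 and 0.171 in H/L fish 4. Sequencing batches are not given in the sources used here. Named bins were those with the 10 highest DSL means, the 10 largest ratios, those beside each threshold, the HOXDB bins, called members, adjacent members and the 5 most like HOXDB, and others are said to have been chosen after their values were seen. Correlations used log2(CPM + 0.1).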

Additional observations from a re-analysis of the deposited data

Results flagged for a closer look

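In DS4 the chr20:13730001-13740000 bin had 12.6 CPM in H/L fish 3, far from the other 7 fish at 0.482 to 2.53 CPM. It was the 1 of 27 groups of 4 to 10 samples examined in which a sample stood this far apart, and chance gives about 1 in 20 such groups. The library had 2.69 M counts. Groups of 11 fish, such as DSL over all fish, were not examined in this way. In DSL the same bin had 8.88 CPM in H/L fish 4 and 0.600 to 2.62 CPM in the other fish. The chr04:13600001-13610000 bin had 24.3 CPM in DSL of H/L fish 4 and 1.33 to 8.67 CPM in that of the others.

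The allele columns, which the levels do not use, carried a signal in 2 libraries. In the DSL library of L/LHR fish 2 the alternate allele was 27.3% of reads in chr11:12180001-12190000 and 30.0% in chr05:12530001-12540000, against 0.221% and 0.139% in the other libraries of that fish. In the Pter library of H/L fish 3 it was 17.1% and 20.7%, against 0.307% and 0.466%. The cause was not tested.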

How the results depend on the processing

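The number of bins that met the rule, 23 as reported, moved to 9 on sites listed in all libraries (7 shared), 10 with medians over fish (6 shared), 12 without libraries under 10 M counts (10 shared), 14 with 20-kb bins, 37 with a DSL minimum of 0.5 CPM, 60 with DSL at least 1.5 times DS1, 3 with at least 3 times, 12 with the site of most reads per bin, and 7 with DS4 also between DS3 and DSL. It was 101 in H/L fish alone and 12 in L/LHR fish alone, and, in an alternative chosen after seeing the data, 8 without both H/L fish 1 and 4. Leaving out each fish in turn gave 17 to 26. On sites listed in all libraries, a member without such a site could not be kept. HOXDB and chr16:9090001-9100000 each had 0 such sites, so that setting did not examine them.

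Between DF and Pter, the 4 members called became 2 at an adjusted p of 0.01, 2 with no filter beyond 1 count, 1 of 8 testable on sites listed in all libraries, 2 without both H/L fish, 7 with fish as a replicate block, and 2 to 6 when each fish was left out. For this comparison the share of all bins called with the replicate block is not given. Between Pter and DS4, the 0 members called became 1 with DESeq2, 1 with the replicate block, 1 without both H/L fish, and 0 to 1 when each fish was left out. In DS3, the 0 called between H carriers and L/LHR fish became 1 with DESeq2. In DSL, the HOXDB log2 change between these groups, -0.15, ran between -0.27 and 0.042 when each fish was left out, turned positive at 0.042 without L/LHR fish 2, and was never called. The causes were not tested.

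Over all bins, DF against AF gave 49 calls, and 31 at an adjusted p of 0.01, 26 at a 5 CPM filter, 108 with the replicate block and 15 on common sites. DF against Pter gave 6888, and 12707 without TMM factors. Pter against DS4 gave 328, and 165 at 0.01, 153 without TMM factors, 662 with the block, 155 on common sites, 210 without H/LHR fish 1, 214 without H/L fish 3 and 563 without both H/L fish. H carriers against L/LHR in DSL gave 1, and 3 with DESeq2, 0 at 5 CPM and on common sites, 2 with no filter and 11 without shallow libraries. In DS3 it gave 40, and 12 at 5 CPM, 126 with no filter, 2 on common sites, 0 without L/LHR fish 3, 66 without L/LHR fish 4 and 21 without both H/L fish. The block changed no other call of a member. No paired analysis was possible for the genotype comparisons in DSL and in DS3 because each fish has 1 genotype and 1 library there. The rise between DS1 and DSL was fitted with the replicate block, and 0 members and 0 bins were called (HOXDB log2 difference -1.996). The levels rest on variant sites only, so a gene without a listed variant was not measured, and bins near 1 CPM rest on as few as 4.78 counts in a DSL library.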

Other observations

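Among members, the sites counted as discordant by the criterion given next lay in a few bins. A site was counted as discordant in a library where the alternate allele made up at least 10% of at least 20 reads while the other libraries of the same fish held at least 100 reads with under 1% of it. The DSL library of L/LHR fish 2 had 71 such sites, 60 of them in members, and the Pter library of H/L fish 3 had 48, 37 of them in members. The median library had 8 such sites and the highest, the DS2 library of H/LHR fish 3, had 93, of which 4 were in members. Over all libraries, such sites in members lay in chr11:12180001-12190000 (42 sites), chr05:12530001-12540000 (17), chr11:12170001-12180000 (3) and chr12:7430001-7440000 (2). Sites with under 20 reads in a library could not be counted, so these counts do not show that other members lacked such alleles. In the DSL library of L/LHR fish 2, chr13:7790001-7800000 had 0 such sites but 20.7% alternate reads, against 0% in that fish's other libraries. The share was also higher there in chr12:7430001-7440000 (30.2% against 0.0227%), chr03:5620001-5630000 (36.8% against 5.92%) and chr11:14400001-14410000 (31.3% against 9.50%). In some members it was lower, as in chr02:550001-560000 (16.7% against 24.8%) and chr15:5970001-5980000 (4.35% against 20.2%). The levels of these last bins were 1.67 and 1.60 CPM in this library of 14.4 M counts, so their shares rest on few reads.

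The 23 members made up 0.487% ± 0.246 of the counts of a DSL library and 0.195% ± 0.0897 of a DS1 library (SD, n = 11 each), and chr11:12180001-12190000 and chr05:12530001-12540000 held most of this.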
